A study of Mus musculus with 6 samples.

Results

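LIM homeodomain genes encode transcription factors that carry a pair of LIM domains, which bind other proteins, and a homeodomain, which binds DNA. Their levels were examined in whole corneas of mouse pups, with members chosen by name: Lhx1, Lhx2, Lhx4, Lhx6, Lhx8, Lhx9, Isl1, Isl2 and Lmx1b. The array annotation paired each of these 9 genes with exactly 1 probe set of its own, so no choice among probe sets was needed. They are 9 of the 19938 genes that the annotation named on the array. Of the other LIM homeodomain genes Lhx3 and Lhx5 also had a probe set of their own, and Lmx1a was not analysed here.

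Corneas were taken at postnatal day 3 from 3 wild-type (WT) samples and from 3 samples of littermates carrying the K14-DN-Clim transgene, in which the keratin 14 promoter, active in basal epithelial cells, drives a dominant negative form of CLIM (DN-Clim). The sources used here give neither strain, sex nor the number of animals behind a sample, and the p-values below speak only for the spread among these 6 arrays, which may be technical in part. RNA of the whole cornea was measured, and in such bulk RNA fewer cells of a type and less RNA per cell cannot be told apart. Each sample was hybridised to 1 Affymetrix Mouse Gene 1.0 ST array. DN-Clim replicates 1 and 2 stood apart by a high signal of lens and retina genes, given with Lhx2 below, which DN-Clim replicate 3 did not share, so results that rest on them are also given without single arrays.

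CLIM proteins, encoded by Ldb1 and Ldb2, bind the LIM domains and join LIM homeodomain factors into larger complexes on DNA, and a form that binds LIM domains without building these complexes can block the family as a whole. LIM-only proteins such as Lmo4 compete for the same cofactor, and the single-stranded DNA binding proteins Ssbp2, Ssbp3 and Ssbp4 protect it from degradation. In the eye Lhx2 acts in the optic vesicle and is kept in retinal progenitors and Müller glia, Isl1 and Isl2 act in retinal neurons, and Lmx1b acts in the periocular mesenchyme that gives rise to the corneal stroma.

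Levels are given as log2(intensity + 16) of the deposited probe set values. A difference is DN-Clim minus WT on that scale, which understates the change of dim genes. With all 6 arrays none of the 9 genes passed a limma adjusted p of 0.05 (adjusted p = 0.796 to 0.999), where 3 of all 23410 probe sets tested did so, or 0.0128%. At an unadjusted p under 0.05 the count was 1 of 9, Lhx2, against a background of 5.94% of all probe sets in either direction and 1.45% for higher ones. The difference was above 0 for 5 of the 9 genes, with a median of 0.14, and above 0 for 42.8% of all probe sets, with a median of -0.04. The WT and DN-Clim arrays did not overlap for 1 of the 9, Lhx9, which was higher, while 3.2% of all probe sets were higher without overlap. No member was lower without overlap, against 6.95% of all probe sets.

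A background level came from 1035 probe sets of olfactory receptors, genes of the nasal epithelium whose transcripts are not thought to be present in cornea. Their median was 7.00 to 7.13 on the WT arrays and 6.93, 6.64 and 7.38 on DN-Clim replicates 1, 2 and 3, so the floor itself was lowest on DN-Clim replicate 2 and highest on DN-Clim replicate 3. Their 95th percentile ran from 8.14 to 8.95. Probe sets differ in their response, so this is a rough limit and gives no order of levels among the genes. Lmx1b lay above the 95th percentile on all 6 arrays, but narrowly, higher than 95.6% to 97.8% of these probe sets. Lhx2 and Lhx4 each did so on 3 arrays and Lhx9 on 1. The share of all probe sets above this limit is not given here. Counts against it, here and below, therefore do not say whether a list is dimmer or brighter than other genes. The other 5 genes (Lhx1, Lhx6, Lhx8, Isl1 and Isl2) were below that limit on every array, and their transcripts were not distinguished from background here.

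**Figure D1:**
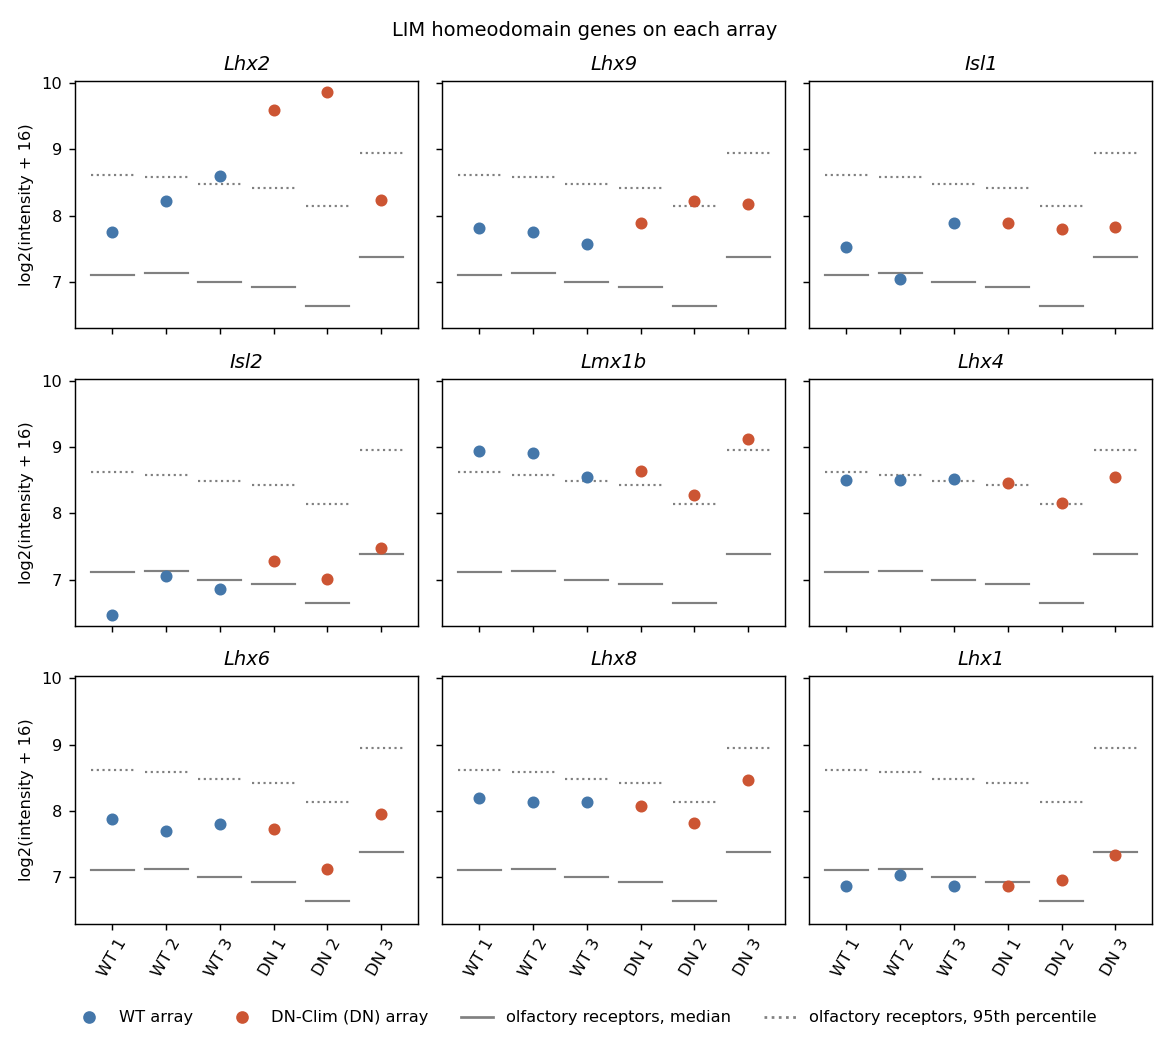
Log2(intensity + 16) of each of the 9 LIM homeodomain genes on the 3 WT and 3 DN-Clim (DN) arrays (1 point per array), with the median (solid) and 95th percentile (dotted) of 1035 olfactory receptor probe sets on the same array. Lhx2 stands out on DN-Clim replicates 1 and 2 at 9.59 and 9.86, and Lmx1b is above the dotted line on all 6 arrays.

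The sequences upstream of the transcription starts are shown for Lhx2, which varied most between arrays, for Lhx9, whose groups did not overlap, and for Lmx1b, which was above background throughout. They are the 250 bases before the start on build GRCm38.p6, from RefSeq, 5′ to 3′. Lhx2 has 2 listed starts, and the other 2 genes have 1 each. Capitals mark TAAT on either strand (ATTA on the other), the core that homeodomains bind.
Lhx2, first start, chr2:38339031-38339280 (plus strand): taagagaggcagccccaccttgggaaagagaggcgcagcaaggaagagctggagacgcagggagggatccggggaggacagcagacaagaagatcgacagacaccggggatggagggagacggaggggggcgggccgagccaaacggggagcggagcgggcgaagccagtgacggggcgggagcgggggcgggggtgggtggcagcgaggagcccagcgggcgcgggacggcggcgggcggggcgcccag
Lhx2, second start, chr2:38351058-38351307 (plus strand): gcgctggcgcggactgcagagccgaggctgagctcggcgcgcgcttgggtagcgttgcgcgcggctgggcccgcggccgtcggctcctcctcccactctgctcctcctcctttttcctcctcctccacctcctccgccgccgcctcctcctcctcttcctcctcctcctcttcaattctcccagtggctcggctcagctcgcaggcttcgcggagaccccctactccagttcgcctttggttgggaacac
Lhx9, chr1:138842445-138842694 (minus strand): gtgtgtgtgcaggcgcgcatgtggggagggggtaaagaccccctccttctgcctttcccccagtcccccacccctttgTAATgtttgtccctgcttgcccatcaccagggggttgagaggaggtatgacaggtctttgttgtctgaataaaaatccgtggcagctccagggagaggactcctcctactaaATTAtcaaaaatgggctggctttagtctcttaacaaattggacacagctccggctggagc
Lmx1b, chr2:33641099-33641348 (minus strand): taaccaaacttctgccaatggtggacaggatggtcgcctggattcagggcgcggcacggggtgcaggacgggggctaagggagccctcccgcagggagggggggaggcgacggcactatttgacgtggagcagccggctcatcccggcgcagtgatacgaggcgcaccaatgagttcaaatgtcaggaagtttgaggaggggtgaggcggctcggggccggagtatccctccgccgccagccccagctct
Both Lhx2 windows and the Lmx1b window held no TAAT, and the Lhx9 window held 2. Over all 9 genes 4 of 12 windows held TAAT, in Isl1, Lhx1, Lhx6 and Lhx9, against 54.9% of the 32851 windows of this length in the table. The longer site TAATTA, whose letters contain TAAT on both strands, was in 0 of 12 windows and in 4.84% of all windows. The Lhx2 windows were rich in G and C, at 72.8% and 68.4%, against a median of 52.4% over all windows, and those of Lhx9 and Lmx1b held 53.6% and 65.2%. A match describes the letters only.

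Lhx2 (probe set 10471833) was the member with the largest difference. It read 7.76, 8.22 and 8.60 on WT replicates 1, 2 and 3 and 9.59, 9.86 and 8.24 on DN-Clim replicates 1, 2 and 3. As deposited intensities these are 201, 282 and 372 for WT and 755, 916 and 287 for DN-Clim. DN-Clim replicates 1 and 2 were above every WT array, while DN-Clim replicate 3 lay inside the WT range. The means were 8.19 ± 0.42 (SD, n = 3) in WT and 9.23 ± 0.87 (SD, n = 3) in DN-Clim, a difference of 1.04 (SE 0.402, 95% interval 0.13 to 1.95). It did not pass (unadjusted p = 0.0287, limma adjusted p = 0.796).

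The difference depended on which DN-Clim array was used. Without DN-Clim replicate 3 Lhx2 rose by 1.53 (SE 0.248, limma adjusted p = 0.0254) and was the 1 member of 9 to pass, where 2.06% of all probe sets passed in either direction and 0.547% as higher. DN-Clim replicate 3 alone was 0.05 above the WT mean (95% interval -0.66 to 0.76), with that sample assumed to vary like WT, and 0 of 9 members passed in that fit (background 0.337%). That array was left out with its values known, which the adjusted p ignores.

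Many markers of neighbouring eye tissue, but not all, were high on the arrays where Lhx2 was high. A list of 20 genes of retinal neurons and progenitors had 17 measured, with 0 past the threshold in either direction and a median difference of 0.70. Its summed intensity was 8320, 11626 and 21252 on WT replicates 1, 2 and 3 and 29752, 40872 and 11558 on DN-Clim replicates 1, 2 and 3. Bright genes weigh most in such a sum, and Neurod4 alone gave 14100 on DN-Clim replicate 2. Lhx2 and this sum put WT replicate 1 lowest, WT replicate 3 highest among WT, and DN-Clim replicate 2 highest of all. Of the 17 genes 10 were higher on DN-Clim replicates 1 and 2 than on each of the other 4 arrays, a pattern found in 12.3% of all probe sets, and 13 had their highest WT value on replicate 3, against 31.6%. The rest lacked the DN-Clim pattern, and 1 gene, Pou4f1, was lower on these 2 arrays than on each other array. It stood at -0.26 and -0.44 from its WT mean there. Pde6b, the rod phosphodiesterase, read 7.19, 7.67 and 8.38 on the WT arrays and 8.80, 10.31 and 8.19 on the DN-Clim arrays. Rcvrn, the photoreceptor calcium sensor recoverin, read 7.34, 6.51 and 7.44 on the WT arrays and 8.81, 8.62 and 7.22 on the DN-Clim arrays. Both were highest on the arrays where Lhx2 was highest. Of the retina genes 4 were above the 95th percentile of the olfactory receptors on all 6 arrays. Among these was Tfap2b, which is also on the mesenchyme list below and varied little, from 10.88 to 11.25. It counts in the retina sum as well.

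The lens list was also high on these 2 DN-Clim arrays, but its WT arrays lay close together. With 19 of 20 genes measured and 0 past the threshold, its median difference was 1.48. Its summed intensity was 7422, 7963 and 9737 for WT and 117193, 111626 and 7887 for DN-Clim. Of the 19 genes 14 were higher on DN-Clim replicates 1 and 2 than on each other array, and 10 had their highest WT value on replicate 3. Pigment cell genes also had this array pattern, at 5 of 7 for the DN-Clim arrays and 6 of 7 for WT replicate 3. With the mean of the retina list as a covariate the Lhx2 difference was 0.14 (95% interval -0.37 to 0.64), and with the mean of the lens list it was 0.09 (95% interval -0.49 to 0.68). Both covariates were highest on DN-Clim replicates 1 and 2, so they are not separate checks. The lens mean set these 2 arrays clearly apart, at 10.91 and 10.98, with 8.66 on WT replicate 3. The retina mean was graded, at 8.43, 8.60 and 9.20 on the WT arrays and 9.59, 9.88 and 8.79 on the DN-Clim arrays. The part of these tissues in the Lhx2 values was not tested.

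Lhx2 and Isl2 were the 2 members of 9 that spanned at least 1 log2 unit over the 6 arrays, as 23% of all named genes did. The genes whose array profile was most like that of Lhx2 were sought among 4579 other genes that spanned at least 1 log2 unit, by the root mean square difference between profiles centred on their own mean. The nearest was Suv39h2, a histone methyltransferase, at 0.0876, then Map2, a neuronal microtubule protein, at 0.104, and Mab21l2, an eye development gene, at 0.109. Mab21l2 read 9.34, 9.68 and 10.28 on the WT arrays and 11.27, 11.60 and 10.04 on the DN-Clim arrays. The best placed gene of the lens list was the filament gene Bfsp2, at rank 15 (0.19). The best placed of the retina list was Otx2, a retinal and pigment epithelial transcription factor, at rank 51 (0.247). Others ranked lower, such as Lim2 at 837 and Crx at 436. Of the crystallins Cryab was at rank 153 (0.341), and the others compared were at 3806 (Crygn) to 4575 (Crygs), with Cryaa at 4513 (1.66). Cryaa was 5.07 and 4.78 above its WT mean on DN-Clim replicates 1 and 2, and this measure counts size as well as shape. The lens and retina list genes in this paragraph were named after their values were seen. All these genes share the same 6 RNA samples, and the likeness is a description of them.

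**Figure D2:**
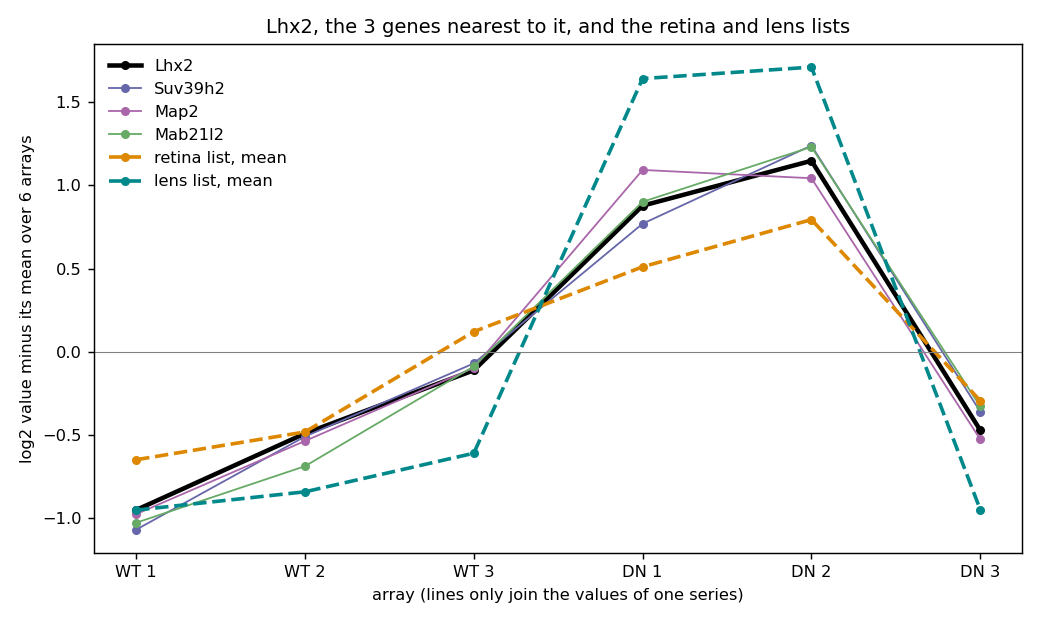
Log2 values of Lhx2, of the 3 genes with the nearest profile and of the means of the retina and lens lists on each of the 6 arrays, each minus its own mean over the arrays; DN is DN-Clim. Lhx2 and the retina list are lowest on WT replicate 1 and highest on DN-Clim replicate 2, and the lens list separates DN-Clim replicates 1 and 2 from the other 4 arrays.

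Lhx9, the closest relative of Lhx2 and known for its role in gonad formation, read 7.81, 7.76 and 7.57 on the WT arrays and 7.89, 8.22 and 8.17 on the DN-Clim arrays. All DN-Clim arrays were above all WT arrays, and DN-Clim replicate 1 exceeded the highest WT array by less than the range within WT. The means were 7.71 ± 0.13 (SD, n = 3) and 8.09 ± 0.17 (SD, n = 3), a difference of 0.38 (SE 0.184, 95% interval -0.04 to 0.79) that did not pass (limma adjusted p = 0.89). Unlike the Lhx2 value, the Lhx9 value on DN-Clim replicate 3 was 0.45 above the WT mean, close to the 0.50 on replicate 2. That closeness did not hold against the floor of each array. Relative to the olfactory receptor median of the same array Lhx9 was 0.71, 0.63 and 0.57 on the WT arrays. On DN-Clim replicates 1, 2 and 3 it was 0.96, 1.58 and 0.79, so replicate 3 was then the nearest to WT. Lhx9 was higher than the olfactory receptor limit on DN-Clim replicate 2 alone. Its difference was 0.47 with the retina covariate and 0.46 with the lens covariate.

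The islet genes, which specify motor neurons and subsets of retinal neurons, were dim. Isl1 read 7.52, 7.04 and 7.89 on the WT arrays and 7.89, 7.80 and 7.83 on the DN-Clim arrays. The DN-Clim arrays lay within 0.09 of each other and within the WT range, whose lowest array, replicate 2, was below the olfactory receptor median. The difference was 0.35 (SE 0.232, 95% interval -0.17 to 0.88), and it was 0.13 without WT replicate 2. Isl2 read 6.47, 7.05 and 6.86 on the WT arrays and 7.28, 7.01 and 7.48 on the DN-Clim arrays. DN-Clim replicate 2 was below WT replicate 2, so the groups overlapped. The Isl2 difference was 0.46 (SE 0.219, 95% interval -0.03 to 0.96, limma adjusted p = 0.867). All 3 WT arrays lay below the olfactory receptor median for Isl2 and all 3 DN-Clim arrays above it, by 0.10 to 0.38. By the same measure of likeness its nearest genes were Birc7 (0.0855), Ngp (0.118) and H2bc18 (0.124).

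Lmx1b, which patterns the dorsal limb and the anterior segment of the eye, read 8.94, 8.91 and 8.54 on the WT arrays and 8.63, 8.28 and 9.12 on the DN-Clim arrays. DN-Clim replicate 2 was the lowest array and DN-Clim replicate 3 the highest, so the DN-Clim values spanned the WT range on both sides. The means were 8.80 ± 0.22 (SD, n = 3) and 8.68 ± 0.42 (SD, n = 3), a difference of -0.12 (SE 0.245, 95% interval -0.67 to 0.43, limma adjusted p = 0.999). Relative to the olfactory receptor median of the same array Lmx1b was 1.84, 1.78 and 1.54 on the WT arrays and 1.70, 1.65 and 1.74 on the DN-Clim arrays, with all DN-Clim arrays inside the WT range. Genes of the periocular mesenchyme and keratocytes, the cells that Lmx1b is known from, had larger negative differences, with a median of -1.04 over 14 measured genes of 15, none above 0 and 0 past the threshold. Among these Col3a1, a fibrillar collagen, differed by -1.48 and Twist2, a mesenchymal transcription factor, by -1.36. On DN-Clim replicates 1, 2 and 3 that list's median distance from the WT mean was -0.99, -1.88 and -0.11, against -0.16, -0.51 and 0.32 for Lmx1b. The difference between Lmx1b and these genes was not tested.

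Of the remaining members Lhx4, a pituitary and motor neuron factor, read 8.50, 8.50 and 8.52 on the WT arrays and 8.46, 8.16 and 8.55 on the DN-Clim arrays. Its WT arrays were the closest of any member (SD 0.01), and DN-Clim replicate 2 was the one array that stood below the rest. Lhx6, a factor of forebrain interneurons and of the mesenchyme of the jaw, read 7.87, 7.69 and 7.80 on the WT arrays and 7.72, 7.12 and 7.96 on the DN-Clim arrays, again with DN-Clim replicate 2 lowest. Lhx8, which acts with Lhx6 in tooth and jaw and specifies cholinergic neurons, read 8.20, 8.14 and 8.14 on the WT arrays and 8.07, 7.81 and 8.46 on the DN-Clim arrays. For Lhx6 and Lhx8 the DN-Clim arrays lay on both sides of WT. Lhx1, an organiser of the head and kidney that also marks retinal horizontal cells, read 6.87, 7.04 and 6.86 on the WT arrays and 6.87, 6.96 and 7.34 on the DN-Clim arrays. The 4 differences ran from -0.19 (SE 0.236) for Lhx6 to 0.14 (SE 0.194) for Lhx1, each with a 95% interval that held 0 and a limma adjusted p of 0.999. The Lhx8 difference, -0.04 (SE 0.207), turned sign with quantile normalization and with median centring, and those of Lhx6, Lhx8 and Lmx1b turned to 0.05, 0.11 and 0.08 without DN-Clim replicate 2.

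Array by array, the members' counts are set beside those of other probe sets at their level. On DN-Clim replicate 3 all 9 members were above the WT mean and 7 above the highest WT array. Of the 11833 probe sets whose mean lay between that of the lowest and the highest member (6.99 to 8.74), 66.9% were above the WT mean on this array and 50.7% above the highest WT array. On DN-Clim replicate 2, 5 members were above the WT mean (26.3% of probe sets at this level), 2 above the highest WT array (17.4%) and 4 below the lowest (59.5%). On DN-Clim replicate 1 these counts were 4 (35.3%), 3 (18.7%) and 2 (41.7%). Lhx2 was 1.40 and 1.67 above its WT mean on DN-Clim replicates 1 and 2, where most probe sets at this level were below theirs. After each array was centred on its olfactory receptor median, 7 members were above the highest WT array on DN-Clim replicate 1 (35.6% of probe sets at this level), 7 on replicate 2 (57.8%) and 3 on replicate 3 (18.8%). On DN-Clim replicate 2 Lhx4 and Lhx8 went from below the lowest WT array to above the highest, Lmx1b came inside the WT range and Lhx6 stayed below it. For Lhx4 and Lhx8 the margin was narrow, at 1.53 against 1.52 and 1.18 against 1.14 on the highest WT array, relative to the olfactory receptor median. With this centring, chosen after the data were seen, Lhx1, Lhx9 and Isl2 were higher without overlap, where 3.81% of all probe sets were. Quantile normalization gave the same 3 genes (background 6.24%), and median centring gave Lhx9 and Isl2 (background 4.57%).

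**Figure D3:**
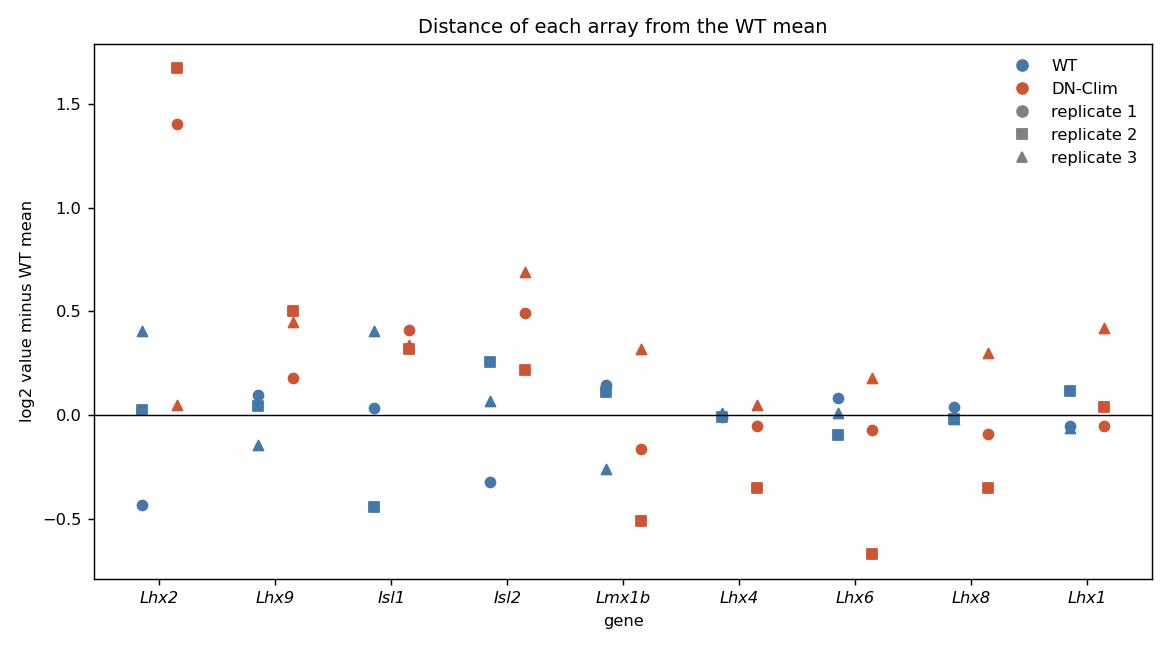
Each array's log2 value minus the WT mean of the same gene, for 3 WT and 3 DN-Clim arrays (shapes give the replicate number) and 9 genes. All 9 genes are above 0 on DN-Clim replicate 3, while Lhx2 exceeds 1 on DN-Clim replicates 1 and 2 alone.

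**Figure D4:**
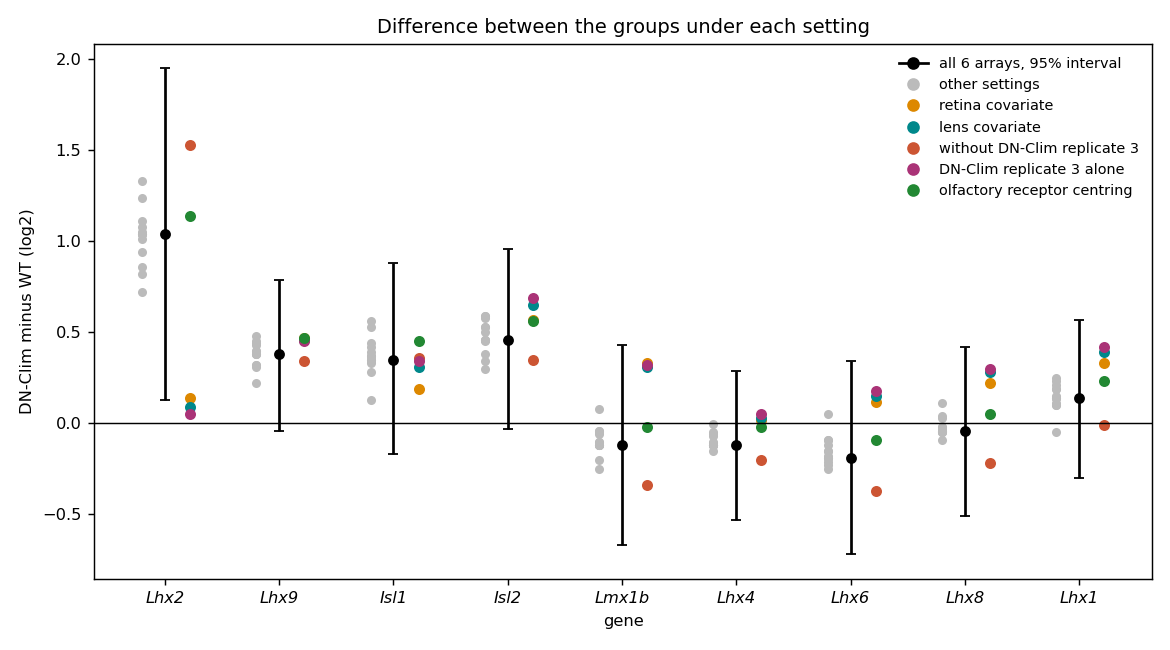
Difference DN-Clim minus WT on the log2 scale for each gene, with all 6 arrays (black, 95% interval from limma) and under the other settings (points). Lhx2 ranges from 0.05 with DN-Clim replicate 3 alone to 1.53 without that array, and Lhx9, Isl1 and Isl2 stay above 0 in every setting drawn.

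The cofactors and competitors that the family depends on did not pass either. Of 10 partner genes all were measured, 0 rose or fell past the threshold, 5 differences were above 0 and the median was -0.01. On DN-Clim replicates 1, 2 and 3 the CLIM gene Ldb1 stood at 10.94, 10.89 and 10.22, against 10.37 to 10.46 on the WT arrays. It was thus above WT where Lhx2 was high and below WT on replicate 3. Ldb2 differed by 0.08 (SE 0.309). The sources used here do not state which part of CLIM the transgene carries, so neither probe set checks the labels. Lmo4 differed by -0.37 (SE 0.201) and Lmo2, a LIM-only protein of blood and vessel cells, by -0.63 (SE 0.393). Ssbp3 differed by 0.26 (SE 0.175) and was the 1 partner without overlap. Lhx3 and Lhx5, the other members of the family measured, differed by 0.01 (SE 0.197) and 0.05 (SE 0.185), and neither exceeded the olfactory receptor limit on any array.

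Of the corneal epithelium list 11 of 13 genes were above the olfactory receptor limit on all 6 arrays. Of the mesenchyme and keratocyte list 9 of the 14 measured genes were. Without the share of all probe sets above that limit, these counts do not check the tissue label. Krt12, the corneal keratin, read 11.21, 11.55 and 11.47 in WT, and Kera, the keratocyte proteoglycan keratocan, 12.56, 12.88 and 13.09. The epithelial list had a median difference of -0.31, with Krt14, whose promoter drives the transgene, at -0.63 and Klf5 at -0.52. In the lens list Grifin and Cryab differed by 0.85 and 0.94. The pigment cell list had a median of 0.02 over 7 genes (Mitf 0.34, Dct -0.48), with a summed intensity of 2330 on DN-Clim replicate 3 and 5080 to 10396 on the other arrays. The nerve list had a median of -0.07 over 5 of 7 genes (Egr2 -0.48, S100b -0.35), and the muscle list 0.37 over 9 (Mylpf 1.68, Acta1 0.57), with its highest sum, 10279, on DN-Clim replicate 3. None of the genes on these lists passed the limma adjusted threshold with all 6 arrays.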

How the data were processed

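Whole-cornea RNA of 3 WT and 3 DN-Clim samples was measured on arrays, grouped by the labels. Per the submitters' processing notes, the deposited probe set intensities came from Affymetrix Expression Console (version 1.1) with the PLIER model. The sources used here do not state the background correction, the normalization or an offset. The number of arrays limits the precision. Of 35557 probe sets 23410 were paired with a gene (21789 with 1 symbol, 1621 with several, from which no gene is named), and 12147 were unnamed and not tested. Intensities were taken as log2(intensity + 16) without further normalization. The 23410 were fitted with limma 3.58.1 in R 4.3.3 (lmFit, eBayes, two-sided, Benjamini-Hochberg over all, threshold 0.05), DN-Clim minus WT, after a check on simulated data.

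The members, marker lists and settings were chosen with earlier results of these data known. All members were named; from each list, genes past the threshold or else the 2 with the smallest p, and the 3 genes of nearest profile for members spanning at least 1 log2 unit. Where genes outside this rule are named, they illustrate a list. Promoter windows were matched by symbol for all 9 members. Alternatives were offsets of 1 and 64, quantile normalization, median centring, a filter on dim probe sets, all probe sets, array weights, a robust prior with trend, a block for the replicate number, a lens covariate and leaving out each array. A retina covariate, olfactory receptor centring and DN-Clim replicate 3 alone were added after the data were seen.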

Additional observations from a re-analysis of the deposited data

How the results depend on the processing

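Of 165 comparisons of a member's difference with an alternative, 143 were on the same side of the threshold in the same direction, 2 moved past it and 20 turned direction, 0 of these past it. The 2 were Lhx2 with array weights (1.33, limma adjusted p = 0.00702), where 2059 of all probe sets passed (8.8%), and without DN-Clim replicate 3. The weights were 3.06, 0.385 and 0.199 on DN-Clim replicates 1, 2 and 3. Both settings thus gave DN-Clim replicate 3 little or no part, and they are not separate checks. Gene-by-gene array weights were used because the default estimate did not converge. Lhx1 turned to -0.05 with array weights. With the retina covariate Lhx4, Lhx6, Lhx8 and Lmx1b turned to 0.02, 0.12, 0.22 and 0.33, with the lens covariate to 0.03, 0.15, 0.28 and 0.31, and with DN-Clim replicate 3 alone to 0.05, 0.18, 0.30 and 0.32. Lhx8 turned to 0.04 with quantile normalization, 0.03 with median centring and 0.05 with olfactory receptor centring. The cause was not tested.

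Leaving out 1 array gave 0.72 to 1.53 for Lhx2, -0.01 to 0.23 for Lhx1, -0.20 to -0.002 for Lhx4, -0.37 to 0.05 for Lhx6, -0.22 to 0.11 for Lhx8, 0.31 to 0.48 for Lhx9, 0.13 to 0.56 for Isl1, 0.30 to 0.59 for Isl2 and -0.34 to 0.08 for Lmx1b. The high ends for Lhx6, Lhx8 and Lmx1b came without DN-Clim replicate 2. Members past the threshold ran from 0 to 1, with 1 also under array weights, and members without overlap from 1 to 4, the 4 without DN-Clim replicate 3 (Lhx2 and Lhx9 higher, Lhx4 and Lhx8 lower, where 13.8% of all probe sets were higher and 27.8% lower without overlap). Counts without overlap, all higher, were 3 with quantile normalization (6.24% of all probe sets), 2 with median centring (4.57%), 3 with olfactory receptor centring (3.81%) and 7 for DN-Clim replicate 3 alone (39.8%). The count was 0 (4.36%) where dim probe sets were left out, a filter that kept only Lhx2, Lhx4 and Lmx1b of the members.

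Of all probe sets, 3 passed with all 6 arrays and 0 to 483 when 1 array was left out, the 483 without DN-Clim replicate 3. There were 1 with quantile normalization, 0 over all probe sets of the table, 5 with the trended robust prior, 10 with the lens covariate, 0 with the retina covariate, 0 with olfactory receptor centring and 79 for DN-Clim replicate 3 alone. With the replicate block there were 9, and 0 members passed. Same-numbered samples had correlations of 0.0172, -0.206 and -0.436 between their deviations, so the numbers were not taken to pair the samples. No member had a further probe set to try. Dim signal limits Lhx1, Lhx6, Lhx8, Isl1 and Isl2. It also limits Lhx9, which exceeded the olfactory receptor limit on 1 array, and Lhx2 and Lhx4, which exceeded it on 1 WT array each.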
